A study of Mus musculus with 6 samples.

Results

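The insulin-like growth factor (IGF) axis was followed in mouse hearts through 10 genes given by name: the ligand genes Igf1 and Igf2, the noncoding gene H19, the receptor genes Igf1r, Insr and Igf2r, the adaptor gene Irs1, and the RNA-binding protein genes Igf2bp2, Igf2bp3 and Lin28b. All 10 were found among the 20121 genes of the deposited count tables, and all 10 were among the 14877 that passed a filter on low counts and were tested. Whole hearts were taken at postnatal day 14 from pups on a mixed ICR and C57BL/6 background. The mutant group, Myh6-Cre; TRalphaAMI, held 3 pups that carried both TRalphaAMI, a knock-in allele of thyroid hormone receptor alpha whose dominant negative product is made after Cre acts, and the Myh6-Cre transgene, which is read in heart muscle cells. The control group held 3 littermates with TRalphaAMI and no Cre. Setting the groups side by side asks how gene expression in the heart depends on thyroid hormone signalling within its muscle cells. Pups with Myh6-Cre alone are not among the groups, so effects of Cre and of the altered receptor cannot be told apart.

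IGF1 and IGF2 are secreted growth factors that act through IGF1R, a tyrosine kinase receptor of the cell surface, and IGF2 also through one form of the insulin receptor. The activated receptors bind the adaptor IRS1, which passes the signal to PI3 kinase, AKT and mTOR. IGF2R, the mannose 6-phosphate receptor, has no kinase and carries IGF2 to the lysosome. In the mouse, Igf2 is read from the paternal chromosome, and H19 and Igf2r from the maternal one. IGF2BP2 and IGF2BP3 bind messenger RNAs, Igf2 among them, and LIN28B blocks the maturation of the let-7 microRNAs. Igf2, H19, Igf2bp3 and Lin28b are known as genes of fetal tissues whose levels fall after birth.

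let-7 lowers messenger RNAs that hold a match to its seed, and the LIN28B, IGF2BP and IGF receptor transcripts are textbook targets. The sequences below show how many of the 10 genes hold such a match. All 9 mature 5p names of the mouse let-7 family with an entry in RefSeq (GRCm38.p6), miR-98 included, share the seed GAGGUAG, bases 2 to 8, shown in capitals. H19 also holds a microRNA of its own, miR-675, which has another seed. Both arms are shown with their seeds in capitals, 5′ to 3′.
let-7a-5p: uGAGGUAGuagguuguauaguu
miR-675-5p: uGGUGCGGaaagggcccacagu
miR-675-3p: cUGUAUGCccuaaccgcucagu
Levels of the mature microRNAs themselves were not analysed here.

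The match to the seed is CTACCTC in DNA letters. It was searched on the transcript strand, in the longest annotated 3′ UTR of each gene in GENCODE M21. It was found in 7 of the 9 coding genes, namely in all 6 of the coding genes that were higher in mutant hearts and in Insr, and not in Igf2 or Irs1. Of all 21037 genes with a 3′ UTR, 9.02% held a match. Textbook targets of let-7 are among the 9, so their share is no test of a part for let-7. The first match of each gene is shown with the 15 bases before it and 1 after, 5′ to 3′, the match in capitals.
Igf1: caatatgtcatctacCTACCTCa
Igf1r: ttttcaaacatttatCTACCTCa
Insr: tcttctcagtacagtCTACCTCa
Igf2r: cacctgctccgtgccCTACCTCa
Igf2bp2: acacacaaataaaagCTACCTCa
Igf2bp3: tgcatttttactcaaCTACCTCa
Lin28b: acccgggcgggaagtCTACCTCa
The first match of each of the 7 genes is followed by an A, and the 4 further matches, 3 in Lin28b and 1 in Igf1r, are not. Lin28b held 4 matches in 4445 bases, and 24.3% of other UTRs of 0.8 to 1.25 times that length held at least 1, with 0.221% holding 4 or more. Igf1r held 2 matches in 7267 bases (38.9% of UTRs of like length held at least 1), and the other 5 genes held 1 each. For Igf2r, with 1304 bases, 9.62% of UTRs of like length held a match. For Igf2bp2 that share was 12.0% and for Igf2bp3 13.3%. For Insr it was 25.3% and for Igf1, with 6308 bases, 33.6%. A match describes the letters of the annotation and is not a site shown to be bound. Calls over all tested genes with a 3′ UTR serve as background. Of 1457 tested genes with a match 18.7% were higher and 19.01% lower in mutant hearts, and of 12231 without one 18.3% were higher and 20.3% lower. UTRs with a match were longer, with a median of 2365 bases against 1080.

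The libraries held 43314706 to 62095277 counts. Pairs of hearts within a group had Pearson correlations across genes (which are not independent replicates) of 0.9919 to 0.9953 on log2 CPM, and pairs across groups 0.9703 to 0.9744, and no heart stood apart from its group. Thra, the gene that carries the altered allele, averaged 137 ± 10.4 CPM in mutant hearts and 76.7 ± 8.54 CPM in control hearts (SD, n = 3 each), where CPM are counts scaled to the library size with edgeR's TMM factors. Gene counts do not separate its altered from its normal transcript. The 9 listed markers of heart muscle cells were present, of which 4 fell and 5 did not pass, against 19.5% of all genes called lower. Their summed levels were 38395 to 39829 CPM in mutant hearts and 42360 to 47715 CPM in control hearts. On RPKM as deposited, without TMM, the mean of Myl2, 1 of the 4, was higher in mutant hearts (3710 against 3534). Those of Actc1, Myl3 and Tnnc1 were lower, and those of the 5 that did not pass were higher. The direction of this list depends on the scale. Calls were made in edgeR's quasi-likelihood test where the Benjamini-Hochberg adjusted p over all 14877 genes was below 0.05. Each p-value rests on the spread among these 6 pups only.

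Of the 10 genes, 7 were higher in mutant hearts, 1 was lower and 2 did not pass. The background was 37.5% of all genes called, 18.1% higher and 19.5% lower. The median log2 fold change of the 10 was 0.59, against -0.00 over all genes tested. The 10 were chosen with earlier results of these data known, so these comparisons describe them and test nothing. Igf2bp2, Igf2r, Igf1r, Igf2bp3 and Lin28b rose by at least 1.5-fold, as did 8.62% of all genes, while H19 and Igf1 rose less, Irs1 fell, and Igf2 and Insr were not called. The CPM ranges of the groups did not overlap for 7 of the 10, and for 49.8% of all genes. TMM keeps the median gene near 0, and the directions given are measured from there. RPKM as deposited lacks that scaling. On log2(RPKM + 0.1) the median of all genes was shifted upward by 0.26, so that 46.4% of genes were called higher and 7.56% lower. On that scale Igf2 and Insr were also called higher, at log2 fold changes of 0.36 and 0.41 (limma adjusted p = 0.00902 and 0.00182), values that exceed the shift by little, and no member changed sign. The same shares were 46.4% and 7.60% on log2(RPKM + 1), and 34.4% and 5.81% on that scale without a filter. A fit with replicate numbers as a term, treated among the processing alternatives, called 20.8% of genes higher and 21.7% lower.

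**Figure D1:**
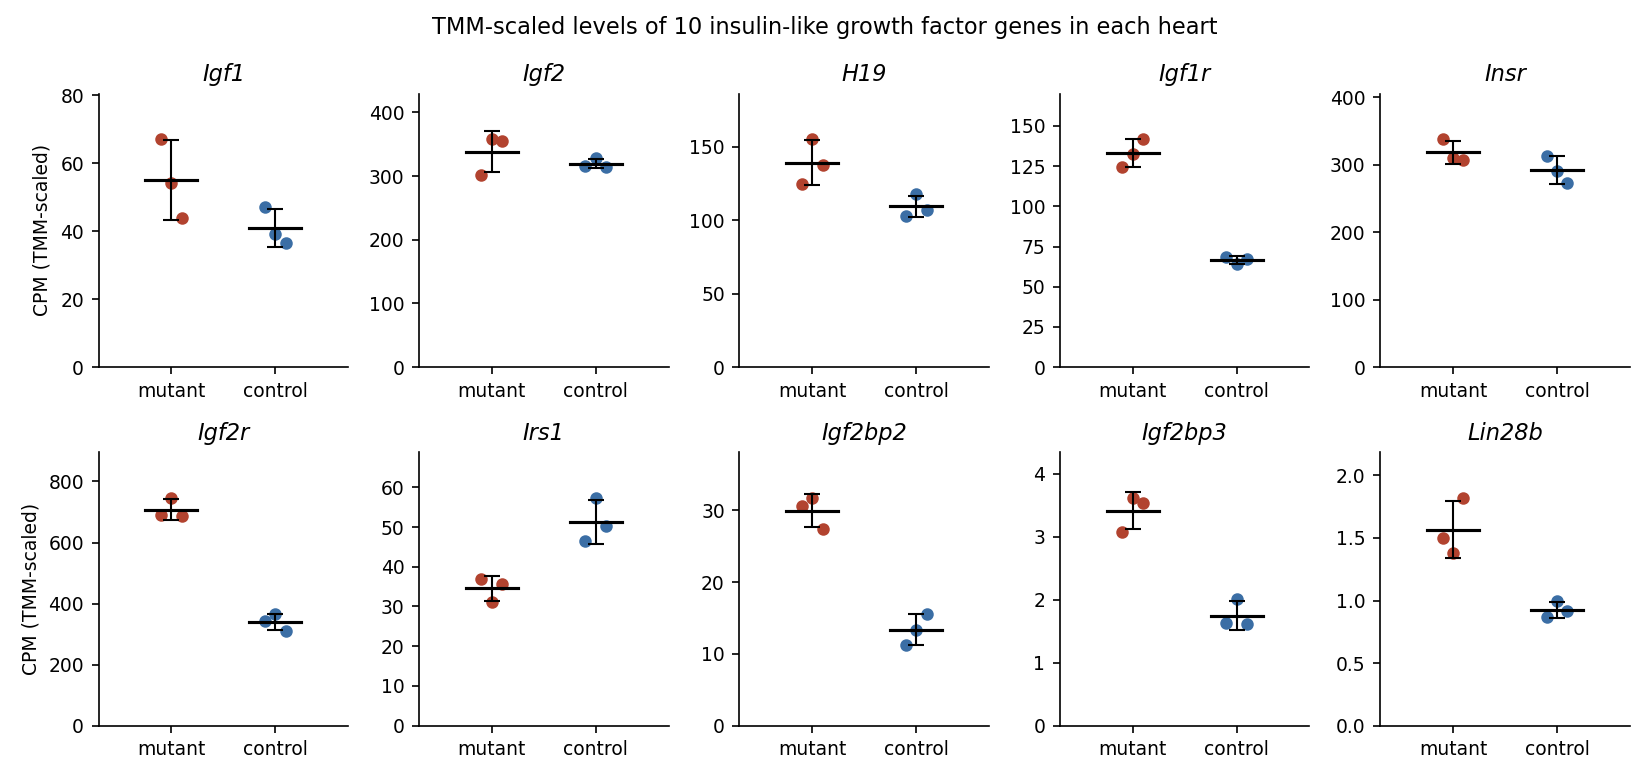
Each panel plots the TMM-scaled CPM of 1 gene on a linear axis from 0, with 1 point per heart, the mean as a line and the SD as a bar (n = 3 mutant and 3 control hearts). Mutant and control points are apart for Igf1r, Igf2r, H19, Irs1, Igf2bp2, Igf2bp3 and Lin28b and overlap for Igf1, Igf2 and Insr.

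Of the ligand genes, Igf1 was called higher by a small margin and Igf2 was not called. Igf1, the ligand that growth hormone raises in many tissues (ENSMUSG00000020053, mm10 chromosome 10, 87858265 to 87937042, plus strand), had 67.1, 54.3 and 43.7 CPM in mutant hearts 1 to 3, against 47.1, 39.2 and 36.5 CPM in control hearts. The groups overlapped, since mutant heart 3 lay below control heart 1. The log2 fold change was 0.43 ± 0.15 (SE, 1.35-fold) with an adjusted p of 0.0461 in edgeR's test, close to the threshold. The call was lost without mutant replicate 1 (0.26, adjusted p = 0.127 in edgeR) and without mutant replicate 2 (0.43, adjusted p = 0.0963). It was also lost without control replicate 2 (0.40, adjusted p = 0.140) and without control replicate 3 (0.35, adjusted p = 0.114).

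Igf2, the fetal ligand (ENSMUSG00000048583, chromosome 7, 142650766 to 142666816, minus strand), had 301, 358 and 355 CPM in mutant hearts, against 316, 328 and 315 CPM in control hearts. Mutant heart 1 was the lowest of all 6 and the other mutant hearts the highest. With a log2 fold change of 0.08 ± 0.08 (SE), Igf2 had an adjusted p of 0.441 in edgeR. A coding gene model on the same strand, Gm49394, shares 62.8% of the exon bases of Igf2 in GENCODE M21, so the level of Igf2 depends on how shared reads were counted.

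H19, the noncoding RNA gene downstream of Igf2 that shares its enhancers (ENSMUSG00000000031, chromosome 7, 142575529 to 142578143, minus strand), had 125, 155 and 138 CPM in mutant hearts, against 103, 118 and 107 CPM in control hearts. Every mutant heart was above every control heart, by a narrow margin. H19 rose with a log2 fold change of 0.35 ± 0.09 (SE, 1.27-fold) and an adjusted p of 0.0113 in edgeR. Within each heart, the ratio of H19 to Igf2 in RPKM, which does not depend on the scaling between libraries, was 1.002, 1.05 and 0.936 in mutant hearts, against 0.788, 0.866 and 0.823 in control hearts. The groups did not overlap, and the mean log2 ratio was higher by 0.27 in mutant hearts. The exact two-sided permutation p was 0.1, the smallest that 3 hearts against 3 allow, or 0.25 adjusted over the 5 ratios compared. The corresponding ratio of Igf1 to Igf2 averaged 0.0958 ± 0.0296 in mutant hearts and 0.0741 ± 0.0104 in control hearts (SD, n = 3 each), with overlapping groups (exact permutation p = 0.2, adjusted 0.333). Both ratios also depend on how reads shared by Igf2 and Gm49394 were counted.

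Fibroblasts, macrophages, endothelial cells and the epicardium are known sources of IGF ligands in the heart, and some listed markers of each were called higher or lower. Of 9 fibroblast markers 3 rose and 6 did not pass, and their summed level was 3066 to 3422 CPM in mutant hearts and 2675 to 3026 CPM in control hearts. Of 9 macrophage markers 7 fell, with sums of 99.2 to 105 CPM in mutant hearts and 144 to 159 CPM in control hearts. Of 8 endothelial markers 7 fell, with sums of 1293 to 1378 CPM in mutant and 1531 to 1643 CPM in control hearts. Among all genes 18.1% rose and 19.5% fell. The direction of the endothelial markers depends on the scale. On RPKM as deposited, means of Pecam1, Cdh5, Kdr and Erg were higher in mutant hearts, and those of Tek, Tie1, Emcn and Flt1 lower. Of the 3 epicardial markers tested, Tbx18 rose and Wt1 fell, and their list summed to 20.3 to 21.8 CPM in mutant and 18.6 to 20.7 CPM in control hearts. No marker of these lists was at 0 in every heart, which holds for every gene of the deposited tables. In whole tissue, fewer cells of a type and less RNA per cell cannot be told apart. The part of these cells in the values of Igf1, Igf2 and H19 was not tested.

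The receptor for both growth factors rose, and so did the receptor that clears IGF2. Igf1r (ENSMUSG00000005533, chromosome 7, 67952827 to 68233668, plus strand) had 124, 133 and 142 CPM in mutant hearts, against 68.3, 64.0 and 67.5 CPM in control hearts. The groups were far apart, and both varied little. Igf1r rose with a log2 fold change of 1.00 ± 0.07 (SE, 1.996-fold) and an adjusted p of 4.82e-06 in edgeR. Among all tested genes 4.60% had a larger positive log2 fold change. Igf2r (ENSMUSG00000023830, chromosome 17, 12682406 to 12769664, minus strand) had 688, 747 and 686 CPM in mutant hearts, against 342, 364 and 310 CPM in control hearts. The lowest mutant heart was well above the highest control heart. The log2 fold change was 1.06 ± 0.08 (SE, 2.08-fold), with an adjusted p of 7.04e-06 in edgeR.

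Insr, the insulin receptor (ENSMUSG00000005534, chromosome 8, 3122061 to 3279617, minus strand), had 338, 311 and 307 CPM in mutant hearts, against 314, 290 and 272 CPM in control hearts. The groups overlapped, and the log2 fold change of 0.13 ± 0.07 (SE) did not pass the test (adjusted p = 0.201 in edgeR). The ratio of Igf1r to Insr in RPKM was 0.301, 0.3496 and 0.378 in mutant hearts, against 0.178, 0.180 and 0.203 in control hearts. Every mutant heart was above every control heart, with a difference of 0.87 on the log2 scale (exact permutation p = 0.1, the smallest possible, and 0.25 adjusted). The ratio of Igf2r to Igf1r was 9.49 ± 0.772 in mutant hearts and 9.08 ± 0.985 in control hearts (SD, n = 3 each), with overlapping groups (exact permutation p = 0.7, adjusted 0.7).

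**Figure D2:**
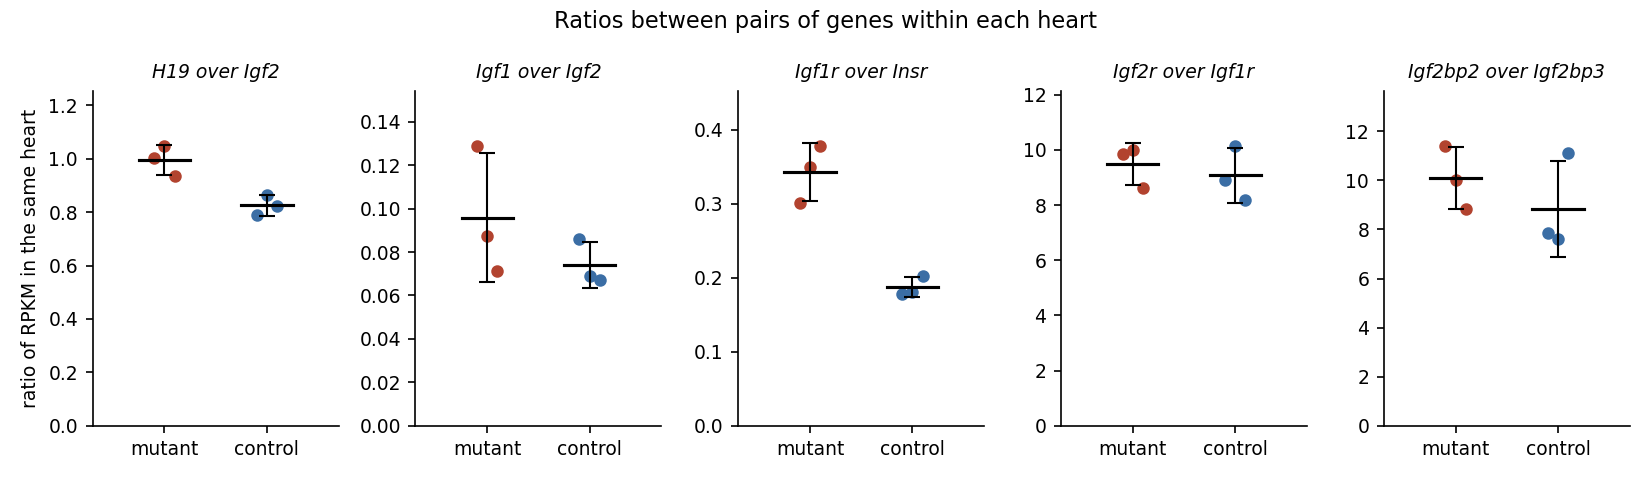
Each panel plots the ratio of the deposited RPKM values of 2 genes within the same heart on a linear axis from 0, with 1 point per heart, the mean as a line and the SD as a bar (n = 3 mutant and 3 control hearts). H19 over Igf2 and Igf1r over Insr were higher in every mutant heart than in any control heart, and the other 3 ratios overlapped.

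The stretches of 250 bases before the RefSeq start of the 2 receptor genes that rose and of Irs1, which fell, are shown next, since the altered protein is a nuclear receptor and many nuclear receptors bind repeats of the hexamer AGGTCA. It was searched as AGGTCA and, on the other strand, as TGACCT, and matches are in capitals. Each stretch is given on the strand of its gene, 5′ to 3′, from RefSeq on GRCm38.p6.
Igf1r (chr7:67952007-67952256, plus strand): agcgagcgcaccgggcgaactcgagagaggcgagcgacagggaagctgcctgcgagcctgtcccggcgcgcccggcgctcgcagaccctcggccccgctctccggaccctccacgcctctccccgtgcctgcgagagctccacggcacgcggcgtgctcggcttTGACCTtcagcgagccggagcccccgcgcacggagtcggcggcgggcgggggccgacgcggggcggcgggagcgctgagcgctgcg
Igf2r (chr17:12769707-12769956, minus strand): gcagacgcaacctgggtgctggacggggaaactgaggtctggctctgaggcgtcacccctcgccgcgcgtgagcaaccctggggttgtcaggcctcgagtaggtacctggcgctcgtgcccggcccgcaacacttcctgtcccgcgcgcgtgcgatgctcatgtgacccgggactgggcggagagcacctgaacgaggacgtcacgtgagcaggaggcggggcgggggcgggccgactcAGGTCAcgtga
Irs1 (chr1:82291440-82291689, minus strand): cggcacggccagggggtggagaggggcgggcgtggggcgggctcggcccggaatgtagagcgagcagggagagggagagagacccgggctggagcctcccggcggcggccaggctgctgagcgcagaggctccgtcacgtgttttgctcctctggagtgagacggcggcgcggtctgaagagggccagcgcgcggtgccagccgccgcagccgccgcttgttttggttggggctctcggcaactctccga
Igf2r held 1 match, which begins 11 bases before the RefSeq start, and Igf1r held 1 on the other strand, 86 bases before the RefSeq start. The stretch of Igf1r ends at 67952256, and its GENCODE span given above begins further on, at 67952827. Irs1 held none. Of the 11 such stretches of the 8 genes with an entry, 4 held a match (the others were 1 of Igf1 and 1 of the 4 of Igf2), against 14.0% of all 32851 in the table. The stretches of Igf2bp2, Igf2bp3 and Lin28b, which also rose by at least 1.5-fold, held no match. Genes that rose were found both with and without a match. Igf2, with a match in 1 of its 4 stretches, was not called. A part of the matches in these changes was not tested. The matches are letters in a short window, and no binding was measured.

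Airn, the noncoding RNA gene that is read from the paternal chromosome against Igf2r and silences it there in many mouse tissues, rose with Igf2r. It had 65.6, 62.4 and 53.4 CPM in mutant hearts, against 34.4, 36.8 and 31.1 CPM in control hearts. The groups did not overlap, and the log2 fold change was 0.83 ± 0.09 (SE) with an adjusted p of 1.17e-04 in edgeR. The gene spans of Airn and Igf2r share 28354 bases on opposite strands but no exon bases. The library kit does not mark strand, so unspliced Igf2r transcripts that cross exons of Airn cannot be told apart from Airn.

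The adaptor gene Irs1 was the only one of the 10 that was called lower. Irs1 (ENSMUSG00000055980, chromosome 1, 82233101 to 82291416, minus strand) had 37.0, 31.0 and 35.6 CPM in mutant hearts, against 46.5, 57.4 and 50.1 CPM in control hearts. The highest mutant heart was below the lowest control heart. Irs1 fell, with a log2 fold change of -0.57 ± 0.10 (SE, 1.49-fold lower in mutant hearts) and an adjusted p of 0.00124 in edgeR. Its fall was smaller on the RPKM scales, at -0.28 to -0.23, and at the lowest size, without a filter on low RPKM, it missed the threshold (adjusted p = 0.0789 in limma). A gene model on the opposite strand, Gm9747, covers 30.9% of its exon bases, and reads of that stretch cannot be assigned to a strand.

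The 3 RNA-binding protein genes rose, and Igf2bp3 and Lin28b were low in both groups. Igf2bp2 (ENSMUSG00000033581, chromosome 16, 22059009 to 22163299, minus strand) had 30.6, 31.8 and 27.3 CPM in mutant hearts, against 11.2, 13.3 and 15.6 CPM in control hearts. The groups did not overlap, and Igf2bp2 rose with a log2 fold change of 1.16 ± 0.12 (SE, 2.23-fold) and an adjusted p of 5.29e-05 in edgeR.

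Igf2bp3 (ENSMUSG00000029814, chromosome 6, 49085223 to 49214957, minus strand), a fetal relative of Igf2bp2, had 3.08, 3.62 and 3.53 CPM in mutant hearts, against 1.63, 2.01 and 1.61 CPM in control hearts. These values come from 156, 184 and 192 counts in mutant hearts, against 64, 113 and 79 in control hearts, and the groups did not overlap. The log2 fold change was 0.96 ± 0.14 (SE, 1.94-fold) with an adjusted p of 6.35e-04 in edgeR. Exons of Malsu1 on the opposite strand cover 18.7% of its exon bases, and Malsu1 went the other way, with 9.36 ± 0.155 CPM in mutant hearts and 12.4 ± 0.653 CPM in control hearts (SD, n = 3 each). The ratio of Igf2bp2 to Igf2bp3 in RPKM was 10.1 ± 1.27 in mutant hearts and 8.85 ± 1.96 in control hearts (SD, n = 3 each), with overlapping groups (exact permutation p = 0.3, adjusted 0.375).

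Lin28b (ENSMUSG00000063804, chromosome 10, 45376620 to 45486395, minus strand) was the least abundant of the 10. It had 76, 70 and 99 counts in mutant hearts, against 34, 56 and 45 in control hearts, which gave 1.4997, 1.38 and 1.82 CPM in mutant hearts and 0.867, 0.994 and 0.915 CPM in control hearts. The groups did not overlap at this low level. Lin28b rose with a log2 fold change of 0.75 ± 0.18 (SE, 1.69-fold) and an adjusted p of 0.00779 in edgeR. On log2(RPKM + 1) the fold changes of Lin28b and Igf2bp3 were 0.12 and 0.29, since the pseudocount exceeds their levels.

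**Figure D3:**
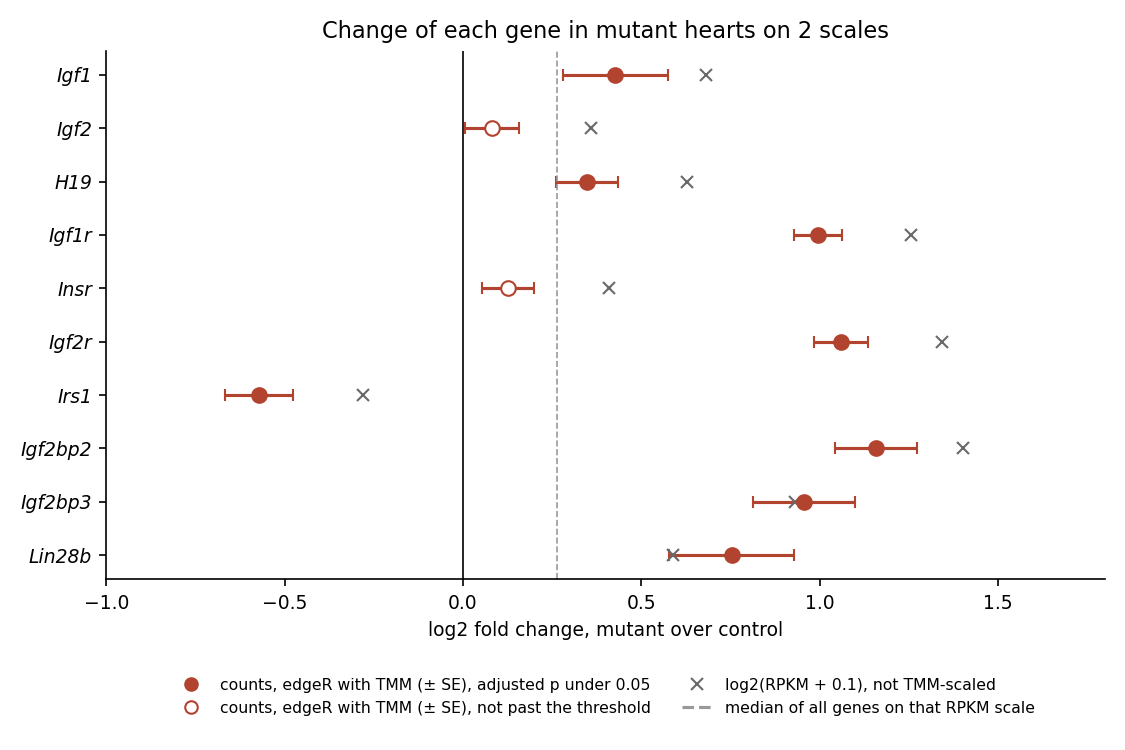
Points give the log2 fold change of each gene, mutant over control, from counts with TMM scaling (circles with SE bars, filled where the adjusted p was under 0.05) and from log2(RPKM + 0.1) without such scaling (crosses), with the median of all genes on the RPKM scale as a dashed line at 0.26. On both scales Irs1 alone lies below 0, and Igf2 and Insr lie closest to the median of all genes.

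Compared per gene length, the 10 genes spanned a wide range of levels, and the order differed between the groups. In mutant hearts Igf2r was first, at 82.2 ± 4.41 RPKM (SD, n = 3), above Igf2 at 64.8 ± 7.20 and H19 at 64.5 ± 7.67 RPKM, whose ranges overlapped. In control hearts Igf2 led at 50.3 ± 1.22 RPKM, then came H19 at 41.6 ± 2.89 and Igf2r at 32.4 ± 2.63 RPKM, with no overlap between neighbours. The place of Igf2 in both orders depends on how reads shared with Gm49394 were counted, which is not known. Insr came next in both groups, at 25.4 ± 0.892 RPKM in mutant hearts and 19.1 ± 1.35 RPKM in control hearts. Igf1r followed at 8.69 ± 0.734 RPKM in mutant hearts, above Igf1 at 6.08 ± 1.17 RPKM with no overlap. In control hearts Igf1r stood at 3.57 ± 0.119 RPKM, with a range inside that of Igf1 at 3.72 ± 0.496 RPKM. Irs1 stood at 4.14 ± 0.359 RPKM in mutant hearts, overlapping Igf2bp2 at 4.60 ± 0.309 RPKM. In control hearts Irs1 came before Igf1, at 5.06 ± 0.556 RPKM, and Igf2bp2 was far lower, at 1.69 ± 0.277 RPKM. Igf2bp3 and Lin28b closed the order in both groups, at 0.459 ± 0.0463 and 0.190 ± 0.0305 RPKM in mutant hearts, and at 0.193 ± 0.0250 and 0.0920 ± 0.00649 RPKM in control hearts (SD, n = 3 each).

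**Figure D4:**
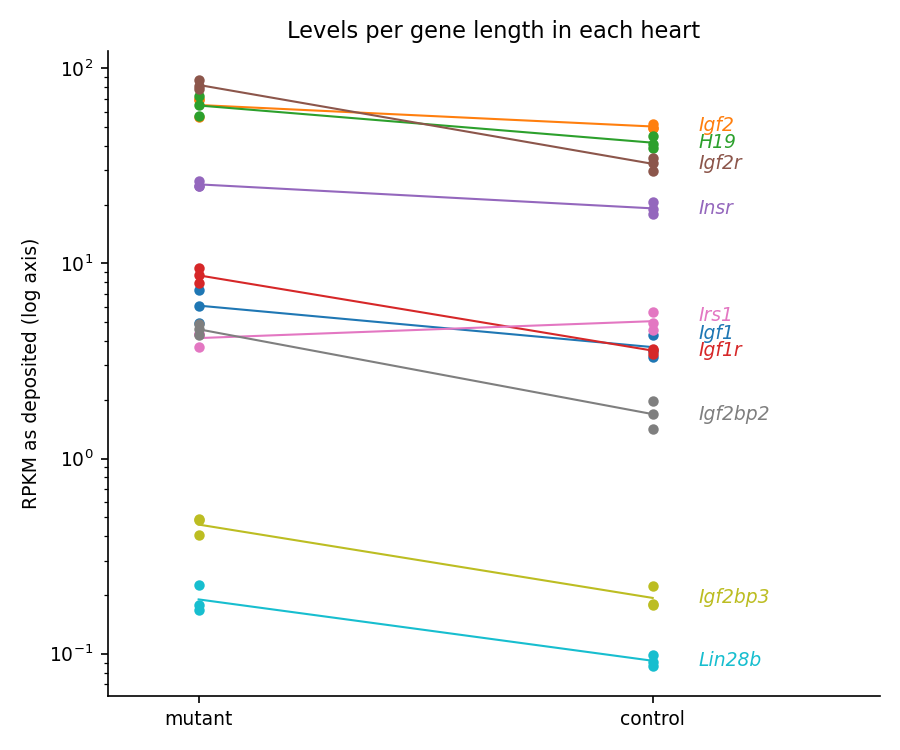
Deposited RPKM of the 10 genes on a log axis, with 1 point per heart and lines that join the group means of each gene (3 mutant hearts at left, 3 control hearts at right). The line of Igf2r crosses those of Igf2 and H19, and among the lines that cross lower down are those of Igf1r and Irs1. The height of the Igf2 line depends on how reads shared with the gene model Gm49394 were counted.

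Other genes of the axis were read from 7 lists. Their counts are set against 18.1% of all genes higher and 19.5% lower on counts, and those on log2(RPKM + 0.1) against 46.4% and 7.56%. Of 8 genes for growth hormone signalling, which raises Igf1 in liver and other tissues, 3 fell (37.5%) and 5 did not pass, Jak2, Socs1, Socs2, Socs3 and Cish. Stat5a, a transcription factor activated by the growth hormone receptor, averaged 10.3 ± 0.587 CPM in mutant hearts and 33.7 ± 2.56 CPM in control hearts (SD, n = 3 each), 3.26-fold lower. Ghr, the receptor itself, averaged 123 ± 6.26 CPM in mutant hearts and 197 ± 17.9 CPM in control hearts, and Stat5b 63.2 ± 3.86 CPM in mutant and 93.2 ± 2.84 CPM in control hearts (SD, n = 3 each). With every heart edgeR called 0 genes of the list higher, with 1 at an unadjusted p under 0.05, and it called 1 without mutant replicate 1 and 1 without control replicate 1. DESeq2 called 1 higher, and 2 were called higher on log2(RPKM + 0.1). The median log2 fold change of this list was -0.09.

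Of 12 tested genes for IGF binding proteins and the enzymes and inhibitors that act on them, 4 fell and 1 rose, with a median of -0.01, and on log2(RPKM + 0.1) 2 were lower and 4 higher. Htra1, a secreted protease that can cut binding proteins, fell 2.38-fold, to 40.3 ± 3.30 CPM in mutant hearts, against 95.9 ± 8.35 CPM in control hearts (SD, n = 3 each). Igfals, the acid-labile subunit of the circulating IGF complex, fell by 0.92 on the log2 scale and Stc2, an inhibitor of the binding protein protease PAPP-A, by 0.57. Igfbp6, which prefers IGF2, fell by 0.36, a call that was lost with DESeq2 (adjusted p = 0.0718), on the RPKM scales and without any of 4 hearts (mutant replicate 2 or 3, control replicate 2 or 3, edgeR adjusted p = 0.0671 to 0.123). The 1 that rose was Igfbp4, named after its values were seen, by 0.24, and no gene of the list was called higher without mutant replicate 2 or 3 or control replicate 1 or 2.

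Of 14 tested adaptors and modulators of the receptors 2 rose, 2 fell and 10 did not pass. Grb10, an imprinted adaptor that restrains the insulin and IGF1 receptors, averaged 395 ± 10.9 CPM in mutant hearts and 258 ± 14.0 CPM in control hearts (SD, n = 3 each), and its log2 fold change was 0.62 ± 0.06 (SE). Gab1, a docking protein, rose by 0.51. Grb14, a relative of Grb10, fell by 0.28 and the phosphatase gene Ptpn11 by 0.31. Both falls were within the shift between scales: on log2(RPKM + 0.1) Grb14 stood at 0.00443 and Ptpn11 at -0.04, neither called. The median of the list was 0.06, and on log2(RPKM + 0.1) 7 of its genes were higher and 0 lower (limma).

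Downstream of the receptors, of 31 genes for PI3 kinase, AKT, mTOR and FOXO proteins 2 rose, 5 fell and 24 did not pass, with a median log2 fold change of 0.04. On log2(RPKM + 0.1) 17 of the 31 were higher and 2 lower, so the direction of this list depends on the scale. On counts only 1 was called higher without mutant replicate 2 or 3 or control replicate 2 or 3. Akt2, the kinase form best known in insulin action, fell by 0.68 on the log2 scale, to 58.5 ± 1.71 CPM in mutant hearts, against 93.6 ± 4.97 CPM in control hearts (SD, n = 3 each). Pik3r1, a regulatory subunit of PI3 kinase, fell by 0.37 on the log2 scale, which was not called on the RPKM scales (-0.08 on log2(RPKM + 0.1)). Foxo6, a FOXO transcription factor, was low and fell 10.5-fold, to 0.276 ± 0.110 CPM in mutant hearts, against 2.88 ± 0.996 CPM in control hearts (SD, n = 3 each). Eif4ebp1, a translation repressor that mTOR switches off, rose by 0.54, to 105 ± 4.93 CPM in mutant hearts, against 72.6 ± 1.97 CPM in control hearts (SD, n = 3 each).

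Of 12 tested genes tied to LIN28, let-7 and fetal RNA-binding proteins 5 rose and 7 did not pass, with a median of 0.07, and on log2(RPKM + 0.1) 9 were higher. None was called lower by edgeR or DESeq2, with 2 lower at an unadjusted p under 0.05. Hif3a, a subunit of hypoxia-inducible factors, rose 3.82-fold, to 42.2 ± 2.21 CPM in mutant hearts, against 11.1 ± 2.97 CPM in control hearts (SD, n = 3 each). Tut4, which adds uridines to let-7 precursors bound by LIN28 proteins, had a log2 fold change of 0.43, and the growth regulators E2f3 and Mycn also rose, by 0.56 and 0.58.

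Of 24 tested imprinted genes tied to growth 8 rose, 5 fell and 11 did not pass, against 18.1% of all genes higher and 19.5% lower, and the median was 0.17. On log2(RPKM + 0.1) 12 were higher and 2 lower. Plagl1, a transcription factor known in the mouse to act on Igf2 and H19, rose 3.63-fold, to 177 ± 14.4 CPM in mutant hearts, against 48.8 ± 1.55 CPM in control hearts (SD, n = 3 each). Gnas, the gene for the stimulatory G protein alpha subunit, rose by 0.96 on the log2 scale, with 22.0% of its exon bases shared with genes on the opposite strand. Grb10 and Airn, given above, are also among the 8. Only 2 genes of the list were called lower without mutant replicate 3 or control replicate 3, and 3 without mutant replicate 1 or mutant replicate 2. Of 6 tested neighbours of Igf2 and H19 on chromosome 7, only Lsp1, a gene known in white blood cells, passed, and it fell by 0.66. Its cell source in these hearts was not tested. None of the neighbours was called higher by edgeR or DESeq2, with 2 higher at an unadjusted p under 0.05 in edgeR and 3 called higher on log2(RPKM + 0.1).

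**Figure D5:**
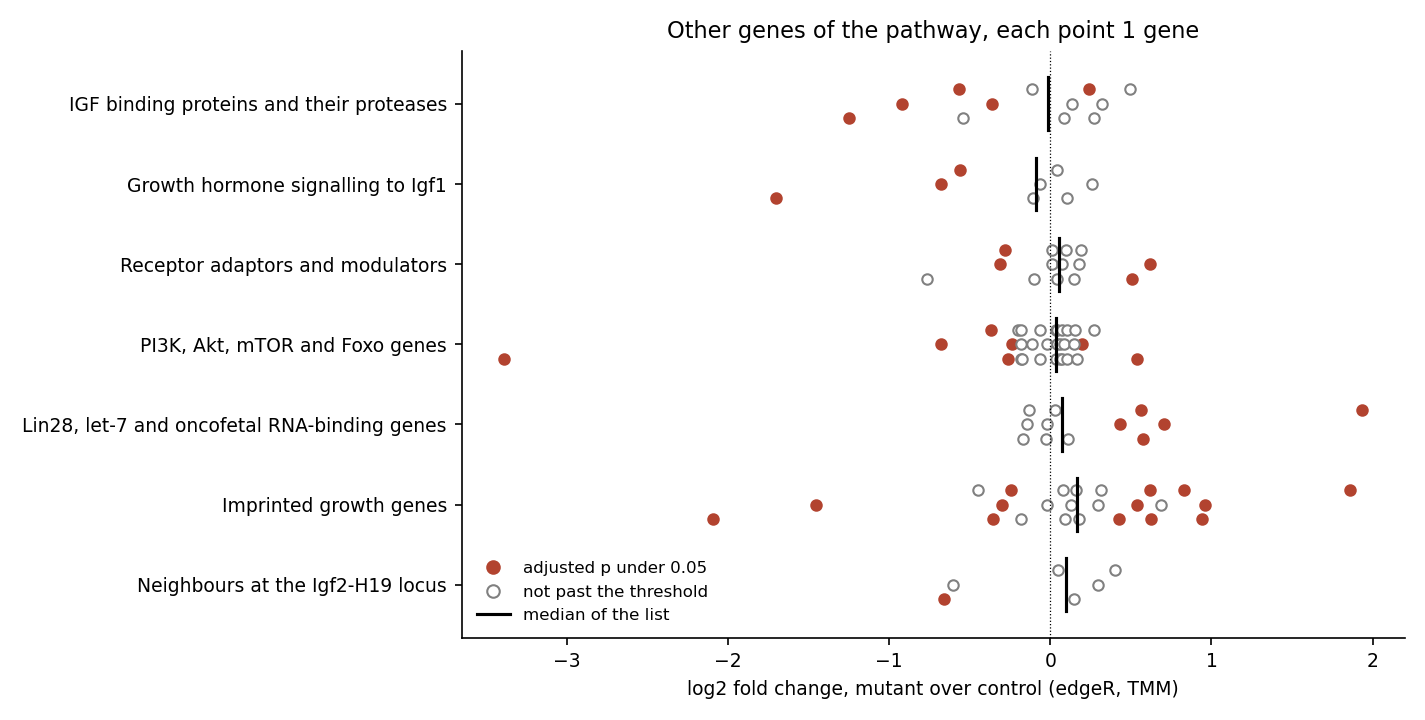
Each point is the log2 fold change of 1 tested gene, mutant over control, by list, filled where the adjusted p was under 0.05 and open otherwise, with the median of each list as a bar. The medians lie between -0.09 and 0.17, and the called genes of 4 of the 7 lists lie on both sides of 0.

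The genes whose pattern over the 6 hearts was most like that of Igf1r and Igf2r, the members with the lowest adjusted p, were found by the root mean square difference of log2 CPM, each gene centred on its own mean. For Igf1r they were Pycard, at a difference of 0.05, Pgrmc2 at 0.06 and Haus8 at 0.06. For Igf2r they were Rufy4 at 0.03, Dact3 at 0.04 and Plxna4 at 0.04. Of the 12016 genes compared, 35 lay within 0.1 of Igf1r and 34 within 0.1 of Igf2r, so these nearest genes are a few of many that are almost as alike.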

How the data were processed

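RNA of 6 whole mouse hearts at postnatal day 14 was sequenced from TruSeq RNA version 2 libraries, per the labels' protocols, in 3 mutant and 3 control pups, and each title gave its group and replicate number. The authors deposited counts as whole numbers per Ensembl gene. The tools named, per the submitters' processing notes, were STAR 2.5.2b, featureCounts 1.5.1 and cutadapt 1.9, with build mm10. How shared reads were counted, with which annotation and strand setting, is not given in the sources used here. RPKM values deposited by the authors were counts per gene length and per library total, with no scaling for composition. Symbols came from GENCODE M21, which matched 20081 of 20121 identifiers.

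Counts were tested with edgeR 4.0.16 (R 4.3.3): filterByExpr at its defaults, TMM, and the quasi-likelihood F test with group as the only term and Benjamini-Hochberg adjustment over 14877 genes. The SE is the log2 fold change divided by the square root of F, an approximation. Alternatives were DESeq2 1.42.0, its size factors in edgeR, no filter, a replicate block, limma 3.58.1 on log2(RPKM + 0.1) and log2(RPKM + 1) with a mean RPKM of at least 0.1 or none, and each heart left out. Scripts were tested on simulated data.

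The genes named were the 10 members, up to 4 called genes with the smallest adjusted p of each of 7 pathway lists, and 3 most alike genes for 2 members. The members and lists, with 8 lists of cell type markers, were chosen with earlier results of these data known.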

Additional observations from a re-analysis of the deposited data

How the results depend on the processing

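The calls of the 10 genes held on counts except for Igf1. Those of H19 and Lin28b came near the threshold, with highest adjusted p of 0.0477 and 0.0368 (edgeR or DESeq2). In the 10 other count fits Igf1r, Igf2r, H19, Igf2bp2, Igf2bp3 and Lin28b were called higher and Irs1 lower in each, Igf2 and Insr in none, and Igf1 in 6 (its log2 fold change was 0.26 to 0.56, edgeR or DESeq2 adjusted p = 0.00175 to 0.140). With 1 heart left out, 6 to 7 of the 10 were higher and 1 was lower, and over all genes 2039 to 2661 were higher and 2234 to 2856 lower, against 2688 and 2898 with every heart. On log2(RPKM + 0.1), log2(RPKM + 1) and log2(RPKM + 1) without a filter, 7091, 7094 and 6916 genes were higher and 1155, 1160 and 1170 lower. There the library totals were not scaled for composition. On each of these scales 9 of the 10 were higher, and 0 were lower on the last (limma, with 1, Irs1, lower there at an unadjusted p under 0.05, and lower in edgeR and DESeq2). Grb14, lower by 0.28 on counts, turned to 0.00443, 0.00422 and 0.00422. Counts of the pathway lists moved by over 1.5 times in 51 of 182 comparisons, 31 of them on RPKM.

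The values do not settle whether the replicate numbers pair the hearts. Deviations from the group means correlated at 0.1548, -0.0502 and 0.0956 for equal numbers, and at -0.1753 to 0.0913 for unequal numbers. With the replicate number as a block, 3090 genes were higher and 3229 lower, 7 and 1 of the 10 genes were, and of the 31 genes for PI3 kinase, AKT, mTOR and FOXO proteins 5 were higher and 9 lower. Paired by number, the mean ratio differences are the same by construction, and the exact sign-flip p of 0.25 to 0.5 cannot go below 0.25.

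The log2 differences of the within-heart ratios were 0.23 to 0.31 for H19 over Igf2, 0.10 to 0.53 for Igf1 over Igf2, 0.79 to 0.96 for Igf1r over Insr, and 0.10 to 0.38 for Igf2bp2 over Igf2bp3 with 1 heart left out. That of Igf2r over Igf1r was -0.01 to 0.15, the negative value being that without control replicate 3 (-0.00527), against 0.07 with every heart. Lin28b rests on 34 to 99 counts per heart, which limits its precision.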

Other observations

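Irs2, the other main adaptor of the insulin and IGF1 receptors, varied widely between hearts of the same group. It had 59.6, 22.2 and 28.9 CPM in mutant hearts, against 24.0, 26.5 and 138 CPM in control hearts. Control heart 3 was the highest and mutant heart 1 the next, and the log2 fold change of -0.77 ± 0.63 (SE) did not pass edgeR's test (adjusted p = 0.371). Igfbp3, a binding protein of blood and tissue, likewise varied within the control group, with 99.4, 80.4 and 103 CPM in mutant hearts, against 56.3, 54.2 and 90.8 CPM in control hearts (adjusted p = 0.0617 in edgeR). Both genes were chosen after their values were seen.

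Of the marker lists not given above, smooth muscle and pericyte markers summed to 1615 to 1710 CPM in mutant hearts and 1773 to 1899 CPM in control hearts. Of these 7 markers 1 was higher and 2 lower, against 18.1% and 19.5% of all genes. The direction of the 2, Rgs5 and Kcnj8, depends on the scale. On RPKM as deposited their means were slightly higher in mutant hearts (265 against 262, and 23.8 against 23.6). Red blood cell markers summed to 91.4 to 242 CPM in mutant hearts and 158 to 245 CPM in control hearts, with 6 of 6 not past the test. Of 4 tested skeletal muscle markers 1 fell, Ckm, which heart muscle also expresses.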
